A study of Mus musculus with 28 samples.

Results

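The folate one-carbon enzymes are a set of 8 mouse genes, chosen by symbol from the 53342 gene identifiers counted in each table. The mitochondrial members are Shmt2, Mthfd2, Mthfd2l, Mthfd1l and Aldh1l2, and the cytosolic members are Shmt1, Mthfd1 and Aldh1l1. Their RNA was measured in 28 cerebral cortex libraries of control (Ctrl) mice and of conditional knockout (cKO) mice, each bulk library from 1 mouse. In cKO mice, Cre recombinase under the mouse GFAP promoter, which is active in astrocytes, deletes a loxP-flanked gene on a C57BL/6J background. Ctrl mice were sex-matched littermates that were homozygous or heterozygous for the floxed allele. Bulk libraries came from 4 cKO and 4 Ctrl mice at postnatal day 17 (P17) and from 4 and 4 at P24. In translating ribosome affinity purification (TRAP), 3 cKO and 3 Ctrl mice at P24 also carried an EGFP-tagged ribosomal protein L10a switched on by the same Cre, and each gave 1 library from the cleared cortical lysate (Input) and 1 of RNA pulled down with the tagged ribosomes (IP). The paper gives the TRAP Ctrl mice the same floxed genotypes, and the sample labels say only Ctrl. Since the tag needs Cre, these mice are taken to carry the driver as well. These statements conflict. With the driver, a floxed homozygote would be a cKO mouse, and a floxed heterozygote would be what the paper calls a conditional heterozygous mouse. The genotype of the TRAP Ctrl mice is therefore not known here. No bulk Ctrl group with the driver and without the deletion was used here.

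Folate carries single carbon units between serine, glycine, formate, purines, thymidylate and methionine, and mammalian cells run this cycle in 2 compartments. In mitochondria, SHMT2 splits serine into glycine and a carbon unit, MTHFD2 or MTHFD2L oxidizes that unit, and MTHFD1L releases it as formate. In the cytosol, MTHFD1 takes formate up again and SHMT1 exchanges the unit with serine and glycine. ALDH1L2 in mitochondria and ALDH1L1 in the cytosol oxidize the formyl unit to carbon dioxide and make NADPH, and ALDH1L1 is widely used as an astrocyte marker in brain. MTHFD2 and SHMT2 are among the enzymes that cells raise through the transcription factor ATF4 when amino acids run short or mitochondria are stressed.

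In GRCm38 coordinates, Shmt2 lies at chr10:127517123-127522444, Mthfd1l at chr10:3973118-4167081, Aldh1l2 at chr10:83487450-83534140, Mthfd2 at chr6:83305691-83325908, Mthfd2l at chr5:90931117-91021368, Shmt1 at chr11:60788104-60811718, Mthfd1 at chr12:76255298-76319803 and Aldh1l1 at chr6:90486427-90600203. RefSeq promoters of build GRCm38.p6, which run from 250 bases before to 50 bases after the start of transcription, matched 7 of the 8 members. Aldh1l2 had no entry. The 4 printed here belong to members whose RNA passed the test between cKO and Ctrl in at least 1 comparison, so that the start of a mitochondrial and a cytosolic gene can be set side by side. Capitals mark short elements found on either strand: the CCAAT box (CCAAT), the core of the NRF-1 element (GCATGCGC) and the core of the ZNF143 element (TACAATTCC). These 3 were searched after the sequences were read, and no match overlapped a match of another of the elements. The first line is Shmt2 at chr10:127522395-127522694 on the minus strand, the second Mthfd2 at chr6:83317555-83317854 on the minus strand, the third Shmt1 at chr11:60811216-60811515 on the minus strand, and the last Aldh1l1 at chr6:90550543-90550842 on the plus strand.
Shmt2: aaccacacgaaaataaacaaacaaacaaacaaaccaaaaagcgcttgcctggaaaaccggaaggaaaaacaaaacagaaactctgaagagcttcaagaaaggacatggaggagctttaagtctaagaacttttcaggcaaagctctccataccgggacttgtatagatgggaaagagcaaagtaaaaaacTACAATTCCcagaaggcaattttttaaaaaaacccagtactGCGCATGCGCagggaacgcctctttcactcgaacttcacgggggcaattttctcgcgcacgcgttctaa
Mthfd2: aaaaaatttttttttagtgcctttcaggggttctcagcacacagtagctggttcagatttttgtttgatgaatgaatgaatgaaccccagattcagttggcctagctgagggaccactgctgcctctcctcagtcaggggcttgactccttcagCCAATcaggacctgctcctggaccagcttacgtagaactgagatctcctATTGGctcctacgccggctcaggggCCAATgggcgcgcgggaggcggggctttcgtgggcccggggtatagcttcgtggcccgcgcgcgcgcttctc
Shmt1: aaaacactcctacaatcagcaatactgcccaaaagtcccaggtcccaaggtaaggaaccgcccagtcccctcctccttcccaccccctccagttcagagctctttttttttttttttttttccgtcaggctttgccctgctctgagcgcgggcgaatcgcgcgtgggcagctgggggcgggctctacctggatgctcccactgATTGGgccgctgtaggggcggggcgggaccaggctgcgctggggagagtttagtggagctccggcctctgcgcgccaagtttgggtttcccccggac
Aldh1l1: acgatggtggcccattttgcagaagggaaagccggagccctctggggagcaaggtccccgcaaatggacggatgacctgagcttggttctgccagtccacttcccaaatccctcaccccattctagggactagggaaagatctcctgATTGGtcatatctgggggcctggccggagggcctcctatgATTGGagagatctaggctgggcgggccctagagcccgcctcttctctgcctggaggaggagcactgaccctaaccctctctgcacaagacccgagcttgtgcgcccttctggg
Mthfd2 had 3 CCAAT boxes, starting 96, 47 and 22 bases before the transcription start. Aldh1l1 had 2, Shmt1 and Mthfd1 had 1 each, and Shmt2 had none. A CCAAT box was present in 37.41% of the 32851 mouse promoters in the table and in 4 of the 7. Shmt2 held the NRF-1 core on both strands in an overlapping palindrome that begins 19 bases before the start, and the ZNF143 core 60 bases before it. NRF-1 is a regulator of many nuclear genes for mitochondrial proteins. These 2 cores occurred in 2.71% and 0.39% of all promoters and in none of the other 6 member promoters. The composite element of C/EBP and ATF factors (TGATGNAAN), to which ATF4 can bind, was found in 3.95% of all promoters and in none of the 7, which says only that these letters are not in this window.

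Counts on genes ran from 8855488 to 14575306 in bulk and from 18433087 to 27242445 in TRAP libraries. All 5 astrocyte markers (Aqp4, Gja1, Slc1a3, Aldoc and Gfap) were higher in IP than in Input in Ctrl mice, by 3.66 to 4.62 on the log2 scale, while 4 of 5 neuronal markers were lower. Neuronal markers did remain in IP, with a summed level of 1973 to 2467 CPM (counts relative to the TMM-scaled library size) in Ctrl against 3677 to 4262 CPM in Input. The 5 astrocyte markers summed to 1206 to 1301 CPM in P24 bulk Ctrl and 1870 to 2064 CPM in cKO, with Gfap and Aqp4 higher and Slc1a3 lower. Their sum was 600.0 to 701.8 CPM in Input Ctrl, 1186 to 1454 CPM in Input cKO, and overlapped between genotypes in IP (8039 to 10060 and 8910 to 11190 CPM). Markers of dividing cells (Mki67, Top2a, Cdk1, Ccnb1 and Birc5) were all higher in IP than in Input, and their summed level in IP was 30.2 to 35.1 CPM in Ctrl and 18.3 to 27.7 CPM in cKO, without overlap; its part in the members' values was not tested. Input also differed from bulk cortex of the same age and genotype, with summed endothelial markers of 5.24 to 6.48 CPM against 94.5 to 104.1 CPM in Ctrl at P24. In bulk and Input libraries, a change in the number of cells of a type and a change in RNA per cell cannot be told apart.

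The first comparison asked where in the cortex the enzymes' RNA is found, by setting IP against Input of the same Ctrl mice. Of the 8 members, 6 were higher in IP, 1 was lower and 1 did not pass the test. Among all genes tested, 71.0% passed in either direction, 35.3% higher and 35.7% lower, so that passing is common in this comparison, and the direction and size differ between members. Aldh1l1 stood at 52.0, 49.1 and 49.4 CPM in the 3 Input libraries and at 264.2, 228.4 and 324.8 CPM in IP, a log2 fold change of 2.40 (SE 0.13, adjusted p = 2.42e-08). Mthfd2l rose from 6.85, 6.42 and 8.37 CPM to 30.3, 31.6 and 27.4 CPM, a log2 fold change of 2.00 (SE 0.12, adjusted p = 5.45e-08). These 2 members, one for each compartment, were raised the most in the set, and all 3 mice showed it.

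Mthfd1l, which releases formate in mitochondria, went the other way. It stood at 25.8, 24.9 and 26.4 CPM in Input and at 10.5, 9.07 and 11.2 CPM in IP, a log2 fold change of -1.37 (SE 0.12, adjusted p = 6.5e-07). It was the only member lower in IP. Its cytosolic counterpart Mthfd1, which takes formate up, rose from a mean of 28.6 ± 2.4 to 58.2 ± 5.2 CPM (SD, n = 3), a log2 fold change of 0.98 (SE 0.11). Mthfd2 rose from 5.18 ± 0.73 to 9.26 ± 1.23 CPM (log2 0.79, SE 0.16) and Aldh1l2 from 1.02 ± 0.51 to 2.94 ± 0.31 CPM (log2 1.45, SE 0.32). Aldh1l2 had only 9 to 35 counts per Input library. The 2 serine hydroxymethyltransferases differed least between fractions. Shmt2 rose by 0.32 (SE 0.12, adjusted p = 0.0308), a call that was lost without mouse 1 or mouse 3 and in a fit of all TRAP libraries (adjusted p = 0.0729, 0.0593 and 0.0599), and Shmt1 had a log2 fold change of 0.18 (SE 0.18, adjusted p = 0.382).

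**Figure D1:**
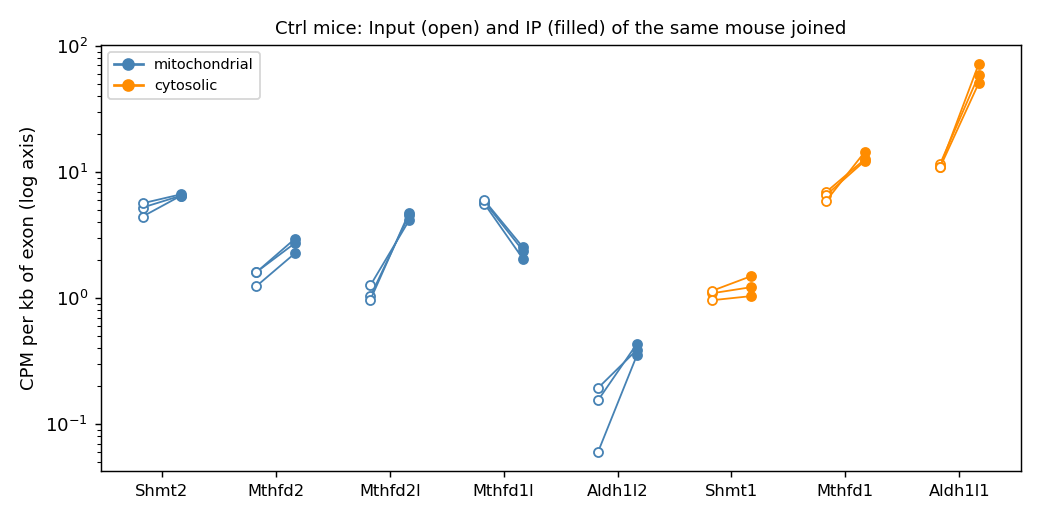
Level of each enzyme in Ctrl mice as CPM per kilobase of exon on a log axis. Open points are Input and filled points IP of the same mouse, joined by a line, with 3 mice per gene, mitochondrial members in blue and cytosolic members in orange. Aldh1l1 and Mthfd2l climb the most, Mthfd1l falls in all 3 mice, and Shmt1 stays nearly level.

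Levels can be set between genes only per length of exon. In Ctrl IP, Aldh1l1 had the highest level, 60.3 ± 10.8 CPM per kilobase (SD, n = 3), followed by Mthfd1 (13.1 ± 1.2), Shmt2 (6.55 ± 0.09), Mthfd2l (4.48 ± 0.32), Mthfd2 (2.66 ± 0.35), Mthfd1l (2.31 ± 0.24), Shmt1 (1.25 ± 0.23) and Aldh1l2 (0.39 ± 0.04). Of the neighbours in this order, Mthfd2 and Mthfd1l overlapped between libraries and the others did not. Mthfd2l thus lay above Mthfd2 in IP, by libraries of 4.13 to 4.76 against 2.27 to 2.96 CPM per kilobase. In Ctrl Input the 2 did not separate (0.97 to 1.26 for Mthfd2l and 1.24 to 1.61 for Mthfd2). The order in Input was Aldh1l1 (11.1 ± 0.4), Mthfd1 (6.45 ± 0.53), Mthfd1l (5.80 ± 0.17), Shmt2 (5.10 ± 0.62), Mthfd2, Mthfd2l, Shmt1 (1.06 ± 0.09) and Aldh1l2 (0.14 ± 0.07), where only the first pair and the last pair of neighbours were apart, along with Shmt2 and Mthfd2. Bulk Ctrl cortex gave a like order at both ages, with Aldh1l1 at 14.4 ± 0.8 at P17 and 11.4 ± 1.0 at P24 and Aldh1l2 lowest at 0.63 ± 0.13 and 0.51 ± 0.09 CPM per kilobase (n = 4).

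In IP libraries at P24, RNA of the mitochondrial enzymes Aldh1l2, Mthfd2 and Shmt2 was higher in cKO than in Ctrl mice, and so was that of cytosolic Shmt1. The remaining members, mitochondrial Mthfd2l and Mthfd1l and cytosolic Mthfd1 and Aldh1l1, did not pass the test. All 4 that passed were higher, against 20.0% of all genes tested that passed in either direction and 11.6% that passed as higher. The same 4 had every cKO library above every Ctrl library, as 19.3% of all genes did. The median log2 fold change was 0.60 over the 5 mitochondrial members, 0.18 over the 3 cytosolic members and -0.015 over all genes tested. With scaling by library size alone the median of all genes moved to -0.13, and 2002 genes passed as higher and 3529 as lower, where TMM gave 2772 and 2010. The 3 mitochondrial calls held under that scaling, and that of Shmt1 did not (adjusted p = 0.105).

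Aldh1l2, which makes NADPH from formyl-folate in mitochondria, showed the largest difference. Its level was 2.91, 3.25 and 2.64 CPM in the Ctrl IP libraries and 13.4, 10.9 and 13.3 CPM in cKO. Every cKO library was above every Ctrl library, with a log2 fold change of 2.11 (SE 0.15, 4.32-fold, adjusted p = 1.92e-05). Its adjusted p stayed between 6.11e-05 and 0.000218 when each library was left out in turn.

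Mthfd2, the dehydrogenase of the next step after SHMT2, stood at 9.53, 10.3 and 7.92 CPM in Ctrl IP and at 23.8, 12.1 and 19.0 CPM in cKO. The cKO mice varied more than the Ctrl mice, and the groups did not overlap (log2 1.00, SE 0.21, adjusted p = 0.00718). Shmt2 stood at 20.2, 20.7 and 20.2 CPM in Ctrl and 26.3, 28.8 and 35.7 CPM in cKO. The Ctrl libraries were nearly equal and all cKO libraries lay above them (log2 0.60, SE 0.12, adjusted p = 0.00738). Without each library in turn, the log2 fold change of Mthfd2 ran from 0.80 to 1.23 and that of Shmt2 from 0.46 to 0.72, and both passed in all 6 fits.

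Mthfd2l, the close relative of Mthfd2, stood at 30.3, 31.6 and 27.4 CPM in Ctrl IP and 33.6, 32.4 and 29.2 CPM in cKO. The groups overlapped, with a log2 fold change of 0.11 (SE 0.10, adjusted p = 0.486). Mthfd1l had a mean of 10.3 ± 1.1 CPM in Ctrl and 11.8 ± 1.5 CPM in cKO (log2 0.23, SE 0.14, adjusted p = 0.28). Whether these responses differed from that of Mthfd2 was not tested.

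Among the cytosolic enzymes in IP, Shmt1 stood at 4.73, 5.78 and 4.02 CPM in Ctrl and 6.96, 7.06 and 6.40 CPM in cKO, on no more than 164 counts in any library. The groups did not overlap, but its log2 fold change of 0.51 (SE 0.16) was just past the threshold (adjusted p = 0.048) and failed it in 4 of the 6 alternative settings, and in the fits that left out any library but Ctrl mouse 2 (adjusted p up to 0.147). Mthfd1 stood at 56.1, 54.4 and 64.2 CPM in Ctrl and 48.4, 43.2 and 58.4 CPM in cKO (log2 -0.20, SE 0.12, adjusted p = 0.296). Aldh1l1 stood at 264.2, 228.4 and 324.8 CPM in Ctrl and 209.7, 330.8 and 371.7 CPM in cKO. These groups overlapped widely (log2 0.18, SE 0.20, adjusted p = 0.561), and cKO mouse 1, which had the lowest Aldh1l1, had the highest Mthfd2.

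**Figure D2:**
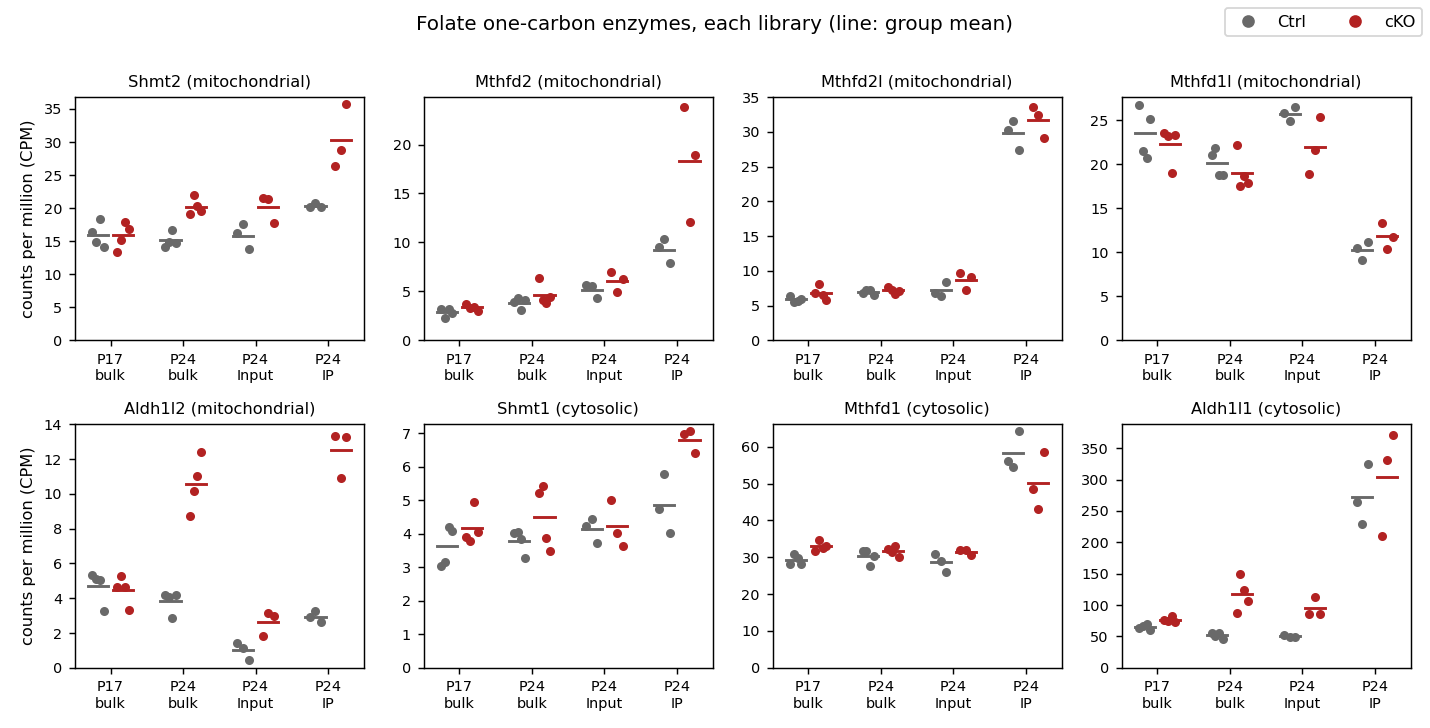
TMM-scaled CPM of each enzyme in every library, by experiment, with Ctrl in grey, cKO in red and the group mean as a line. There are 4 mice per bulk group and 3 per Input or IP group. Aldh1l2 is higher in cKO in P24 bulk and IP and overlaps at P17, Mthfd2 separates in IP, and Aldh1l1 separates in bulk and Input but overlaps in IP.

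In whole cortex at P24, 3 members rose in cKO mice: mitochondrial Aldh1l2 and Shmt2 and cytosolic Aldh1l1. Among all genes tested, 1.72% passed in either direction and 1.26% as higher. Aldh1l2 stood at 4.17, 4.05, 2.85 and 4.22 CPM in Ctrl and 8.73, 10.2, 11.1 and 12.4 CPM in cKO, a log2 fold change of 1.47 (SE 0.15, adjusted p = 0.000368). Aldh1l1 stood at 54.9, 51.3, 54.8 and 45.4 CPM in Ctrl and 87.9, 149.3, 124.1 and 106.5 CPM in cKO, a log2 fold change of 1.18 (SE 0.13, adjusted p = 0.000617). In both, the lowest cKO mouse was well above the highest Ctrl mouse. Shmt2 stood at 14.1, 14.9, 16.8 and 14.7 CPM in Ctrl and 19.1, 22.0, 20.2 and 19.5 CPM in cKO, a smaller difference that also left no overlap (log2 0.42, SE 0.07, adjusted p = 0.0109).

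The other 5 members overlapped between genotypes in P24 bulk, where 3.95% of all genes had every cKO library above every Ctrl library and 3.74% every one below. Mthfd2 stood at 3.95, 4.34, 3.08 and 4.07 CPM in Ctrl and 6.40, 4.08, 3.80 and 4.41 CPM in cKO (log2 0.28, SE 0.19, adjusted p = 0.572), and a single cKO mouse stood out. Shmt1 (log2 0.25, SE 0.17), Mthfd1 (0.07, SE 0.06), Mthfd2l (0.05, SE 0.10) and Mthfd1l (-0.07, SE 0.09) had adjusted p between 0.587 and 0.888. The calls of the 3 members held in all 8 fits that left out 1 library, with Shmt2 nearest the threshold at 0.0464. The rise of Aldh1l1, itself an astrocyte marker, went with a rise of the summed astrocyte markers in the same libraries. Within that sum the markers differed. Gfap (log2 2.51) and Aqp4 (1.25) rose, Gja1 (0.12) and Aldoc (0.04) did not pass, and Slc1a3 fell (-0.40). The part of cell numbers in the rise of Aldh1l1 was not tested.

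**Figure D3:**
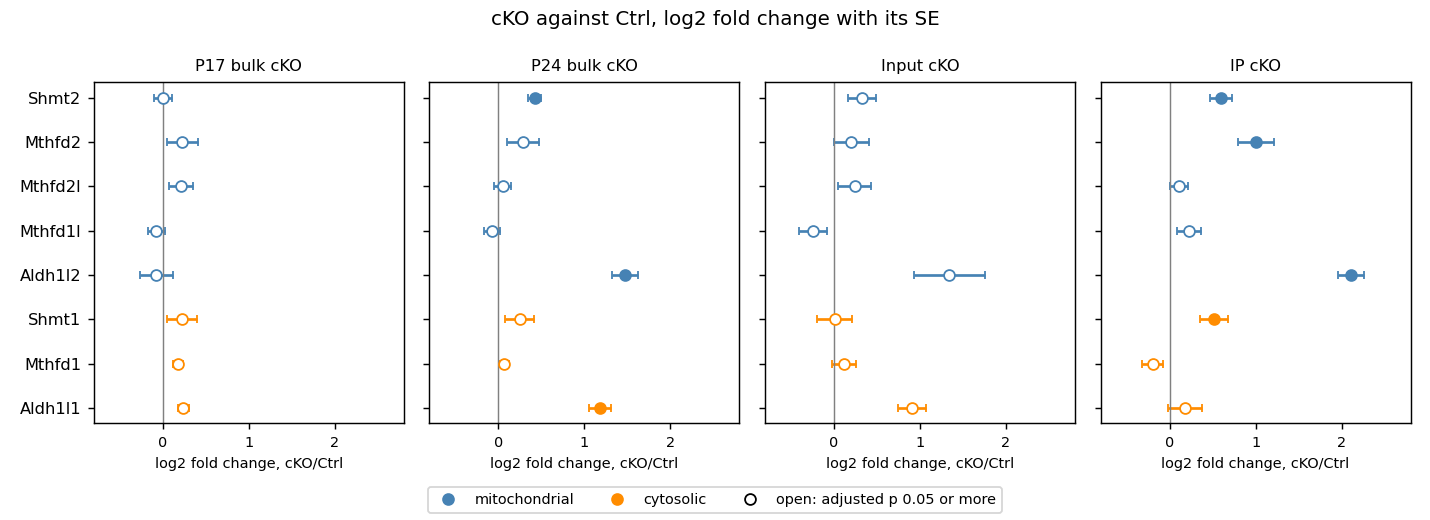
Log2 fold change of cKO over Ctrl for each enzyme in P17 bulk, P24 bulk, Input and IP, with bars of 1 SE. Filled points passed an adjusted p of 0.05; mitochondrial members are blue and cytosolic members orange. In the main test, which left out the pairing of libraries, no member passed at P17 or in Input, 3 did in P24 bulk and 4 in IP. Aldh1l2 stood at 1.47 in P24 bulk and 2.11 in IP.

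At P17, none of the 8 members passed the edgeR test, where 0.0943% of all genes did. At an unadjusted p under 0.05 there were 2 members, Mthfd1 and Aldh1l1, and DESeq2 called 0. Aldh1l1 stood at 63.8, 66.4, 69.0 and 60.6 CPM in Ctrl and 75.9, 74.8, 81.9 and 72.2 CPM in cKO, without overlap (log2 0.24, SE 0.06, adjusted p = 0.495), as 1.6% of all genes had all cKO libraries above all Ctrl libraries. With the replicate number as a block, which paired the P17 libraries, the same log2 fold change of 0.24 passed (adjusted p = 0.0236), as 0.514% of all genes then did. Mthfd1 stood at 28.1 to 30.9 CPM in Ctrl and 31.6 to 34.7 CPM in cKO (log2 0.18, SE 0.06, adjusted p = 0.925). Aldh1l2 stood at 5.31, 5.10, 5.07 and 3.29 CPM in Ctrl and 4.67, 5.29, 4.63 and 3.31 CPM in cKO, so its groups covered the same range (log2 -0.07, SE 0.19). Shmt2 had means of 15.9 ± 1.9 and 15.9 ± 2.0 CPM (log2 0.0034, SE 0.11, adjusted p = 1), and Mthfd2 had means of 2.90 ± 0.42 and 3.37 ± 0.29 CPM. Mthfd2 (0.23), Mthfd2l (0.21), Shmt1 (0.23) and Mthfd1l (-0.07) had log2 fold changes of 1 to 2 SE or less, with adjusted p of 1.

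Whether the genotype difference itself changed with age was tested as an interaction over the 16 bulk libraries. Among all genes, 0.0470% passed, and 2 of the 8 members did. The cKO difference of Aldh1l2 was larger at P24 than at P17 by 1.54 on the log2 scale (SE 0.25, adjusted p = 0.0192) and that of Aldh1l1 by 0.94 (SE 0.16, adjusted p = 0.0323). Both calls depended on which library was left out in fits without 1 library. Aldh1l2 passed in 8 of 16 such fits and was lost without P17 cKO mouse 1 or 4, P17 Ctrl mouse 1, 2 or 3, P24 cKO mouse 3 or P24 Ctrl mouse 2 or 3. Aldh1l1 passed in 5 of 16, without P17 cKO mouse 3, P24 cKO mouse 1, 2 or 4 or P24 Ctrl mouse 1. In these fits the adjusted p ran from 0.00145 to 0.0723 for Aldh1l2 and from 0.000147 to 0.114 for Aldh1l1. The interactions stayed between 1.42 and 1.67 and between 0.81 and 1.05. For Shmt2 the interaction was 0.42 (SE 0.13, adjusted p = 0.549). The P17 and P24 libraries are deposited as separate tables, so age and any batch of that kind cannot be told apart.

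Input libraries came from the cleared lysates of the 6 TRAP mice. No member passed edgeR's test between genotypes there, where 0.109% of all genes did; 2 members had an unadjusted p under 0.05, and DESeq2 called 1, Aldh1l1. Aldh1l1 stood at 52.0, 49.1 and 49.4 CPM in Ctrl and 86.2, 112.4 and 86.2 CPM in cKO. The groups were far apart (log2 0.90, SE 0.16, adjusted p = 0.164), and Aldh1l1 passed with DESeq2 (0.00052), without the low-count filter (0.019) and without cKO mouse 1 (0.0131). Aldh1l2 stood at 1.45, 1.16 and 0.45 CPM in Ctrl and 1.82, 3.14 and 2.96 CPM in cKO, on 9 to 84 counts per library (log2 1.34, SE 0.41, adjusted p = 0.812). Shmt2 stood at 16.2, 17.6 and 13.8 CPM in Ctrl and 21.5, 21.4 and 17.7 CPM in cKO, with all cKO libraries above all Ctrl libraries by a narrow margin (log2 0.33, SE 0.16, adjusted p = 0.812). Among all genes in Input, 7.53% had all cKO libraries above all Ctrl libraries and 4.24% all below. In the other 5 members, the groups overlapped, with log2 fold changes from -0.25 for Mthfd1l to 0.24 for Mthfd2l and adjusted p of at least 0.812.

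The difference between the IP and the Input response was tested as an interaction of fraction and genotype over the 12 TRAP libraries. No member passed, as 0.0582% of all genes did; at an unadjusted p under 0.05 there were 3, and DESeq2 called 0. The response of Mthfd2 was larger in IP than in Input by 0.79 on the log2 scale (SE 0.31, adjusted p = 0.482), that of Mthfd1l by 0.47 (SE 0.21, adjusted p = 0.549) and that of Aldh1l1 smaller by the fitted value of -0.73 (SE 0.28, adjusted p = 0.48). A difference between fractions was therefore not shown for any member, even for Aldh1l1, which separated the genotypes in Input and overlapped in IP. IP levels are relative to all RNA recovered in the pull-down, in which neuronal markers remained, whereas Input levels are relative to the RNA of the cleared lysate.

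Ratios within a library set the compartments against each other without regard to depth. Shmt2 to Shmt1, both per kilobase, had group means from 4.76 ± 0.44 in P17 cKO to 6.04 ± 0.64 in Input cKO. This ratio overlapped between genotypes in P17 bulk, P24 bulk and IP but not in Input (4.61 to 4.95 in Ctrl and 5.37 to 6.65 in cKO). Mthfd1l to Mthfd1 was 0.90 ± 0.10 in Ctrl Input and 0.18 ± 0.01 in Ctrl IP, and 0.81 ± 0.13 and 0.66 ± 0.03 in Ctrl bulk cortex at P17 and P24. The formate-releasing enzyme was thus lowest against the formate-using one in IP. Between genotypes, this ratio was 0.17 to 0.19 in Ctrl and 0.20 to 0.28 in cKO in IP, and went the other way in Input (0.84 to 1.01 in Ctrl and 0.59 to 0.83 in cKO). It did not overlap between genotypes in either fraction, though in Input only by a narrow margin. Neither gene passed between genotypes in IP or in Input. Among single genes, every cKO library was higher in 19.3% and lower in 18.3% in IP. The shares in Input were 7.53% and 4.24%, so a lack of overlap is common, above all in IP. The ratio of Mthfd1l to Mthfd1 overlapped in bulk, with means of 0.68 ± 0.07 in cKO at P17 and 0.60 ± 0.06 at P24. Aldh1l2 to Aldh1l1 stood at 0.0067 ± 0.0018 in Ctrl IP and 0.027 ± 0.010 in cKO IP, again without overlap, but overlapped in P24 bulk (0.031 to 0.056 and 0.041 to 0.070), where both genes rose.

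The sum of the 5 mitochondrial over the 3 cytosolic members had a lower mean in cKO than in Ctrl in P17 bulk, P24 bulk and Input, and a higher one in IP. At P17 it was 0.527 to 0.655 in Ctrl and 0.472 to 0.526 in cKO (means of 0.58 ± 0.05 and 0.50 ± 0.02), and the groups stood apart by a narrow margin. The mean was 0.63 ± 0.03 in Ctrl and 0.44 ± 0.08 in cKO in P24 bulk, and 0.22 ± 0.04 in Ctrl and 0.31 ± 0.10 in cKO in IP. The P24 bulk groups did not overlap (0.59 to 0.66 and 0.35 to 0.55), and neither did those of Input (0.71 to 0.75 and 0.44 to 0.56), whereas the IP groups did (0.18 to 0.26 and 0.25 to 0.43). Aldh1l1 makes up most of the cytosolic sum, so this ratio follows Aldh1l1 more than any other member. Among single genes, every cKO library was lower in 1.34% at P17, 3.74% in P24 bulk and 4.24% in Input.

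**Figure D4:**
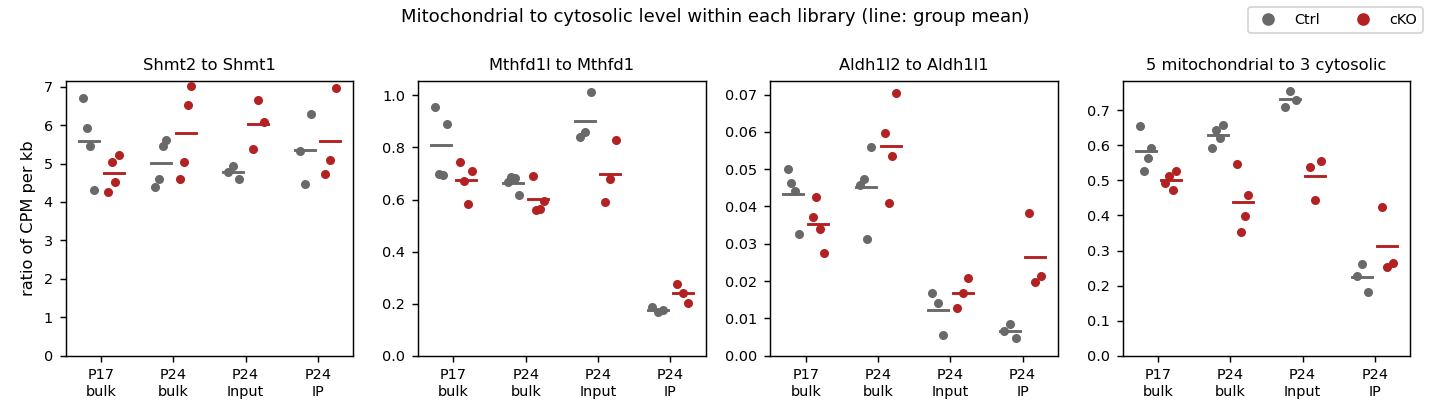
Ratio of mitochondrial to cytosolic level (CPM per kilobase) within each library, Ctrl in grey, cKO in red, and the group mean as a line, with linear axes that start at 0. Shmt2 to Shmt1 has group means from 4.76 to 6.04 and overlaps between genotypes except in Input. Mthfd1l to Mthfd1 drops from 0.90 in Ctrl Input to 0.18 in Ctrl IP, and Aldh1l2 to Aldh1l1 is higher in cKO in IP.

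Of 22 other genes listed (carriers, folate synthesis and reduction, methionine, purine and thymidylate steps, and the glycine cleavage system), 21 were tested in P24 bulk, where Sardh rose and Gldc fell, and 20 in IP, where Gcsh rose and Gldc fell. The 2 that passed in each stand beside 1.72% of all genes tested in P24 bulk and 20.0% in IP. Their median log2 fold change was 0.058 in P24 bulk and 0.049 in IP. Gldc, the decarboxylase that starts glycine cleavage in mitochondria, stood at 66.6 to 67.8 CPM in Ctrl IP and 30.4 to 41.8 CPM in cKO (log2 -0.94, SE 0.13, adjusted p = 0.000794), and fell by 0.40 in P24 bulk (SE 0.08, adjusted p = 0.0187). Gcsh, which carries the glycine unit between the subunits of the same complex, rose from 133.0 to 134.7 CPM in Ctrl IP to 176.0 to 187.7 CPM in cKO (log2 0.46, SE 0.09, adjusted p = 0.00457). Sardh, which feeds sarcosine carbon into mitochondrial folate, rose by 0.53 in P24 bulk (SE 0.10, adjusted p = 0.0234) and had a log2 fold change of -0.24 in IP (adjusted p = 0.205). In P24 bulk, the call of Gldc held only without cKO mouse 1 or Ctrl mouse 2, and that of Sardh only without cKO mouse 1, 2 or 3, among the 8 fits that left out 1 library (adjusted p up to 0.0647 and 0.0765). In 1 fit of all TRAP libraries, Gcsh had an adjusted p of 0.0872 in IP. At P17 and in Input 0 of 21 and 0 of 20 passed with edgeR, with 1 each at an unadjusted p under 0.05. DESeq2 called 1 at P17 and 0 in Input. The 1 at P17 was Sardh (13.5 ± 0.6 CPM in Ctrl and 19.1 ± 1.5 CPM in cKO, log2 0.50, SE 0.08, adjusted p = 0.0532 with edgeR), which also passed with the replicate block. Between IP and Input in Ctrl mice, 11 of the 20 were higher and 4 lower. Gldc, Sardh, Ggh, Gcsh and Amt were higher by 1.90 to 3.02 on the log2 scale.

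Serine, the donor of carbon units, is made from a glycolytic intermediate by PHGDH, PSAT1 and PSPH. All 3 genes were far higher in IP than in Input in Ctrl mice (log2 2.31 to 3.10). In P24 bulk, Psat1 rose from 54.0 to 59.2 CPM in Ctrl to 70.3 to 81.1 CPM in cKO (log2 0.43, SE 0.06, adjusted p = 0.00263). In IP, Phgdh fell from 265.4 to 294.1 CPM in Ctrl to 162.8 to 235.1 CPM in cKO (log2 -0.53, SE 0.14, adjusted p = 0.0182), a call held without cKO mouse 3 or Ctrl mouse 1 and lost without each of the other 4 libraries (adjusted p up to 0.0839). In Input, Phgdh stood higher in all cKO libraries than in all Ctrl libraries without passing (log2 0.51, SE 0.15, adjusted p = 0.774), and in P24 bulk its log2 fold change was 0.10 (SE 0.09). Its difference between the IP and the Input response was -1.05 (SE 0.21, adjusted p = 0.102 with edgeR), which DESeq2 called. Psat1 in IP had a log2 fold change of 0.24 (SE 0.09, adjusted p = 0.0887 with edgeR), with all cKO libraries above all Ctrl libraries, and was called by DESeq2 and with the replicate block. Psph did not pass edgeR's test in P24 bulk or IP.

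Of 12 genes linked to ATF4 and amino acid stress, 7 were higher in cKO IP and none was lower: Trib3, Nupr1, Chac1, Atf5, Cebpb, Sesn2 and Ddit3. Among all genes tested, 11.6% passed as higher in IP. The median log2 fold change over the 12 was 0.65, beside -0.015 over all genes tested. This list, like the members, was chosen with earlier results of these data known. Its share and median are therefore a description and no test of an ATF4 response. Nupr1, a stress-induced chromatin protein, rose from 27.3 to 39.9 CPM to 226.8 to 242.8 CPM (log2 2.87, SE 0.14, adjusted p = 1.61e-06). Trib3, a pseudokinase induced by ATF4, rose from 2 to 4 counts per Ctrl library to 27 to 71 counts in cKO. The Ctrl counts of Trib3 were under the minimum of the low-count filter, so it entered the IP test only through its cKO libraries. A gene kept in that way can only come out as higher, so the direction of Trib3 among the 7 and in the median was set by the filter. Atf4 itself had a log2 fold change of 0.21 (SE 0.16, adjusted p = 0.414), and Asns, a target widely used to read ATF4, 0.27 (SE 0.15, adjusted p = 0.25). With the replicate block, 9 of the 12 passed as higher in IP, Asns and Pck2 among them, where 28.2% of all genes passed in either direction. DESeq2 called 8 as higher, with Pck2 but without Asns, where 11.4% of all genes passed. In P24 bulk, 3 of 11 tested rose (Nupr1, Atf5 and Slc3a2), where 1.26% of all genes passed as higher. In Input 1 of 12 rose (Nupr1), where 0.109% of all genes passed in either direction, and at P17 0 of 11, with 1 at an unadjusted p under 0.05 and 0 called by DESeq2. The call of Atf5 in P24 bulk held without cKO mouse 1 or 4 or Ctrl mouse 1 and was lost without each of the other 5 (adjusted p up to 0.0763), that of Ddit3 in IP was lost in 1 fit of all TRAP libraries (0.0696), and that of Nupr1 in Input without any of the 3 Ctrl mice (up to 0.268).

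Genes whose level most resembled each member over the 12 TRAP libraries were found by Pearson correlation of log2 CPM over 18493 genes. For Aldh1l2 they were Tubb6 (r = 0.991), a tubulin, and Sp6 (0.974), for Mthfd2 Ddit4l (0.972) and Ivns1abp (0.959), for Shmt2 Gm4768 (0.968) and Adamtsl5 (0.967), and for Mthfd2l Ankrd29 and Chchd3 (0.998 each). For Mthfd1l, which is low in IP, they were Jmjd4 (0.991) and Rundc3b (0.988). For Mthfd1 they were Aldh7a1 (0.992) and Gm6439 (0.989), for Aldh1l1 Micall2 (0.996) and H2-K1 (0.992), and for Shmt1 the weaker matches Rpl10-ps2 (0.966) and Gm25296 (0.954). No member was among the nearest 2 of another. The points share 2 fractions, IP and Input, of the same 6 mice, and the values are a description.

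Reads that fall where 2 genes overlap could not be assigned with certainty, since the strand setting of the counting is not given in the sources used here. Exons of Ndufa4l2 overlap Shmt2 on the other strand, but Ndufa4l2 had means of 0.45 to 1.55 CPM across the groups, far under Shmt2. D10Wsu102e overlaps Aldh1l2 on the other strand and did not pass between genotypes, with log2 fold changes of -0.18 in IP and -0.10 in P24 bulk. It was counted more than Aldh1l2, with a mean log2 CPM of 4.668 against 2.974 in IP and 4.935 against 2.888 in P24 bulk. Smcr8, opposite Shmt1, had a log2 fold change of -0.29 in IP (adjusted p = 0.144) and a mean log2 CPM of 4.51 against 2.573 for Shmt1. How far reads from these overlaps enter the values of Aldh1l2 and Shmt1 was not tested. Gm15756, antisense to Aldh1l1, moved with it: it rose from 7.97 to 9.31 CPM to 15.1 to 27.0 CPM in P24 bulk (log2 1.34, SE 0.15, adjusted p = 0.000663) and had 0.27 in IP (adjusted p = 0.304). Its reads and those of Aldh1l1 cannot be told apart where their exons overlap. For Gm45901, on the same strand as Aldh1l1, the log2 fold change in P24 bulk was 0.31 (adjusted p = 0.475).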

How the data were processed

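RNA-Seq was done on cerebral cortex from 16 bulk libraries and 12 TRAP libraries. The authors aligned reads with STAR to mm10 and deposited raw, unnormalized counts per Ensembl gene in a table for each experiment. Which program and annotation counted them, and whether by strand, is not given in the sources used here. Bulk RNA was primed with oligo-dT, and TRAP used 10% of the cleared lysate as Input and anti-GFP beads for IP. The members and the gene lists were chosen with earlier results of these data known, and genes overlapping a member were added after values were seen. Symbols, positions and exonic lengths came from GENCODE M21 (GRCm38).

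Counts were tested in R 4.3.3 with edgeR 4.0.16 (TMM factors, filterByExpr with a minimum count of 10, quasi-likelihood test, two-sided), adjusted by Benjamini–Hochberg over all genes tested, with 0.05 as the threshold. The SE is the log2 fold change over the square root of F. Named genes were all 8 members, the pathway genes past the threshold, the deleted gene (not reported here) and the 2 nearest genes of each member with a mean log2 CPM of at least 1 (pseudocount 0.5). Alternatives were RLE factors, library size alone, no filter, DESeq2 1.42.0, the replicate block, 1 fit of all libraries of an experiment, and leaving out each library. Same-numbered P17 libraries deviated together (correlations of 0.179 to 0.42), so their numbers pair them, and IP and Input pair by mouse. The main tests, including IP against Input and the interactions, left this pairing out and treated libraries as independent. Only the replicate block used it. Replicates differed by more than counting error in all 36 pairs (chi-square per degree of freedom 2.59 to 78.6). Input cKO replicate 1 stood out, at 75.1 and 78.6 against replicates 2 and 3, which gave 8.09 with each other. That library also had the lowest TMM factor, 0.8656. In P24 bulk, cKO replicate 1 gave 11.4 to 14 against the other cKO replicates, which gave 3.2 to 4.77 with each other. A count of 3 equals 0.206 to 0.339 CPM in bulk and 0.110 to 0.163 CPM in TRAP libraries, for counting error only. The steps were tested on simulated data.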

Additional observations from a re-analysis of the deposited data

Results flagged for a closer look

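In 32 groups of 4 bulk libraries (8 genes in 4 groups), 3 had a library far from the other 3, with a gap past Dixon's critical value, where chance flags about 1 in 20. Aldh1l2 was low in P24 Ctrl replicate 3 at 2.85 CPM (others 4.05 to 4.22) and in P17 Ctrl replicate 4 at 3.29 CPM (others 5.07 to 5.31). Mthfd1l was low in P17 cKO replicate 3 at 18.9 CPM (others 23.2 to 23.5). The interaction of age and genotype passed in 2 members, at 1.54 on the log2 scale for Aldh1l2 and 0.94 for Aldh1l1. These calls held in 8 and 5 of the 16 fits that left out a library. Age and any batch of the separate tables cannot be told apart.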

How the results depend on the processing

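Of 1098 values of single genes under the alternatives, 1003 kept their direction and their side of the threshold, 57 no longer passed, 4 came to pass and 34 changed sign, none of them past the threshold. The changes of sign outside the fits that left out a library were Shmt2 at P17 (-0.0053 without the filter and -0.0018 with the replicate block), Shmt1 in Input (-0.038 by library size alone) and Mthfd1l in the age interaction (0.017 by library size alone and 0.014 without the filter). With each library left out, signs changed within -0.086 to 0.049 (Mthfd1l), -0.15 to 0.15 (Mthfd2) and -0.075 to 0.12 (Shmt1) in the age interaction, -0.12 to 0.096 (Shmt1, Input), and -0.20 to 0.050 (Aldh1l2), -0.13 to 0.0016 (Mthfd1l) and -0.055 to 0.077 (Shmt2) at P17.

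The replicate block moved the number of members called only at P17, from 0 to 1. With it, genes called went from 20 to 109 at P17, from 388 to 410 in P24 bulk and from 26 to 8 in Input. In IP they went from 4782 (20.0%) to 6735 (28.2%). They went from 15 to 6 in the fraction interaction and from 11 to 55 in the age interaction. Same-numbered libraries correlated at least 0.0364 in P24 bulk and 0.0776 in IP. There, 4 of 8 and 6 of 6 libraries correlated best with their own number. In Input the lowest such correlation was -0.0626. DESeq2 called 593 genes in P24 bulk, 40 at P17, 118 in Input (1 member), 299 in the fraction and 54 in the age interaction, against 388, 20, 26, 15 and 11. Without a filter these were 618, 55, 112 (1 member), 189 and 62. One fit of all TRAP libraries gave 1684 genes in IP, against 4782, and 127 in Input; such a fit was not made for the interactions. Leaving out each library gave 216 to 950 genes in P24 bulk (the highest without cKO replicate 1), 11 to 19 at P17, 2633 to 4810 in IP (the lowest without cKO replicate 2), 4 to 112 in Input (the highest without cKO replicate 1), 3 to 432 in the fraction interaction (the highest without Input cKO replicate 1) and 4 to 149 in the age interaction (the highest without P24 cKO replicate 1). Members called then ran from 0 to 1 in Input and from 0 to 2 in the age interaction. The causes were not tested. Aldh1l2 had 9 to 84 counts per Input library.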
